A study of Homo sapiens with 8 samples.

Results

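The genes of the cap-binding complex eIF4F and of the 4E-BPs that restrain it were chosen by name: EIF4E, EIF4E2, EIF4E3, EIF4G1, EIF4G2, EIF4G3, EIF4A1, EIF4A2, EIF4EBP1 and EIF4EBP2. RefSeq transcripts of 9 of these 10 genes were measured, with 23 transcripts among 24812 and 9 genes among 14524 named ones, and the expression of EIF4A1 was not analysed here. SQ20B is an established human cell line from a head and neck squamous cell carcinoma. Poly(A)+ RNA libraries were made from 4 normoxic replicates and from 4 that spent 16 h in 0.5% O2, and the labels name no genetic change or drug in either group. The authors' table gives 1 FPKM value per transcript and condition over its replicates, a read density scaled by transcript length and by the mapped reads of a library, so no spread between replicates, error or test can be given for any difference, and "higher" and "lower" describe those values only. In a culture, a lower level of an RNA per cell and fewer cells that make it cannot be told apart.

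In the cytoplasm, eIF4E binds the cap of an mRNA, eIF4G bridges eIF4E to the ribosome through eIF3, and the helicase eIF4A unwinds the 5′ leader. The 4E-BPs occupy the face of eIF4E that eIF4G would bind, and the kinase mTORC1 phosphorylates them to release eIF4E. Low oxygen is known to lower mTORC1 activity. The study asked how cells adjust RNA processing and translation in hypoxia, and these genes encode the step at which most capped mRNAs are recruited. Protein levels and phosphorylation were not analysed here.

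Changes are given as log2((hypoxia FPKM + 0.1)/(normoxia FPKM + 0.1)) with the FPKM of a gene's listed transcripts added, and the added 0.1 understates changes of low genes. All 9 measured genes averaged 0.5 FPKM or more over both conditions, as did 12103 genes in all. Their median log2 change was -0.07, and 21.2% of them differed by at least 1.5-fold in either direction. The hypoxia genes checked first (7 of 8 measured, among them CA9, BNIP3 and EGLN3) were all higher in hypoxia, with log2 changes from 1.02 to 4.77. Squamous markers were present (7 of 8 measured, KRT5 at 398 and TP63 at 42.8 FPKM in normoxia), with a summed level of 672 FPKM in normoxia and 735 in hypoxia. Of the 7, 4 were higher and 3 lower, KRT6A by over 1.5-fold (5.10 and 3.26 FPKM). Of 8 markers of leukocytes, endothelium and mesenchyme, 3 were measured: CDH5 went from 4.78 to 2.83 FPKM, ACTA2 from 7.57 to 8.62 and COL3A1 was at most 0.11. Their part in the results was not tested.

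The 9 genes split by direction. EIF4E, EIF4E2 and EIF4G2 were lower in hypoxia, and EIF4G1, EIF4G3, EIF4A2, EIF4E3, EIF4EBP1 and EIF4EBP2 were higher, the last by under 1%. Thus 3 of 9 were lower, where 56.4% of all genes were lower, and 6 of 9 were higher, where 43.6% of all genes were. At least 1.5-fold lower was EIF4E alone (1 of 9, against 11.2% of all genes), and at least 1.5-fold higher was EIF4E3 alone (1 of 9, against 9.94%). The shares past 1.5-fold lie close to the background, while those by direction alone lie further from it and were not tested. The median log2 change of the 9 genes was 0.25. Each of the 9 kept its direction when the FPKM columns were scaled to equal sums, centred on the median gene or quantile normalized. Equal sums rest on the totals of all 24812 entries (536005 FPKM in normoxia and 458431 in hypoxia), very short RNAs such as SNORA63 included. The split of all genes past 1.5-fold was 1203 higher and 1361 lower as deposited, 2220 and 599 with equal sums, 1498 and 1060 with centring, and 1400 and 1022 with quantile normalization.

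**Figure D1:**
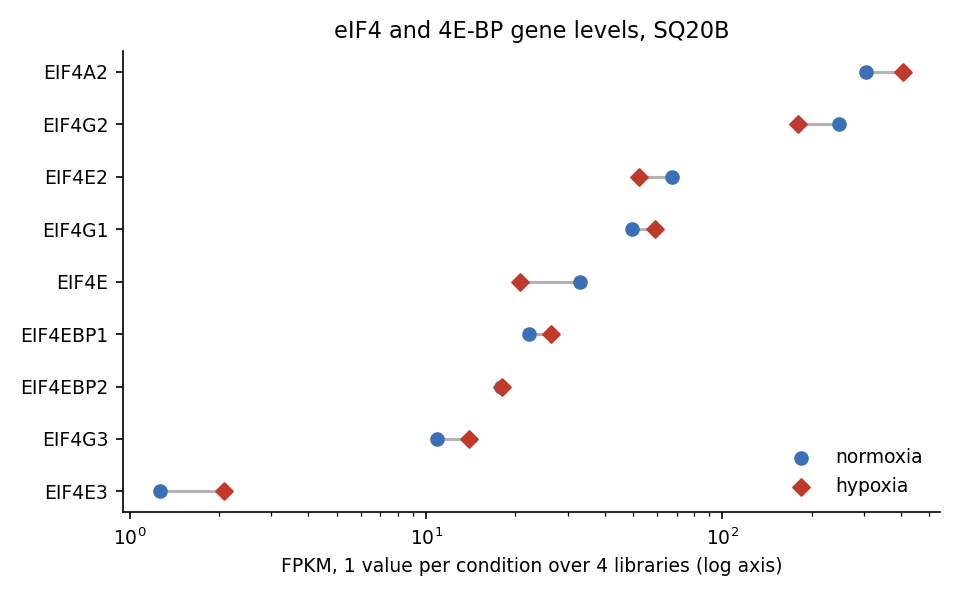
FPKM of each measured eIF4 and 4E-BP gene on a log axis, summed over its transcripts, in normoxia (blue circles) and hypoxia (red diamonds), each 1 value over 4 libraries. EIF4A2 and EIF4G2 were far above the rest in both conditions and moved in opposite directions, and EIF4EBP1 lay below EIF4E in normoxia and above it in hypoxia.

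By level, EIF4A2 (306 FPKM) and EIF4G2 (247 FPKM) led in normoxia and together made up 73.3% of the summed FPKM of the 9 genes. EIF4E2, EIF4G1, EIF4E, EIF4EBP1, EIF4EBP2 and EIF4G3 followed in that order, and EIF4E3 was last. In hypoxia the order was the same but for a pair of exchanges: EIF4G1 stood above EIF4E2, and EIF4EBP1 above EIF4E. Whether neighbours in the order differ beyond the spread between libraries is unknown. The summed FPKM of the 9 genes was 755 in normoxia and 779 in hypoxia.

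EIF4E, the main cap-binding protein and a subunit of eIF4F, was listed at 32.9 FPKM in normoxia and 20.7 FPKM in hypoxia. It was 1.59-fold lower, a log2 change of -0.66 that lay at percentile 8.43 of all genes. When all genes were cut into 10 equal groups by mean FPKM, the group of EIF4E had a median of -0.15. With equal sums its change was -0.44, and with quantile normalization -0.57, so that it no longer reached 1.5-fold under either. The gene lies on the minus strand of chromosome 4 of hg19 (99800427 to 99850284). Both of its main transcripts were lower: NM_001130678 was listed at 21.0 and 14.2 FPKM and NM_001968 at 11.2 and 5.92 FPKM, with log2 changes of -0.57 and -0.90. The third, NM_001130679, was listed at 0.778 and 0.668 FPKM, and its small difference changed sign with equal sums. The share of NM_001968 in the EIF4E total went from 33.9% to 28.5%, the largest difference in share among the transcripts of these genes.

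EIF4E2, also called 4EHP, binds the cap more weakly and has been described as a cap-binding protein of hypoxic translation. Its FPKM was 67.4 in normoxia and 52.1 in hypoxia, 1.29-fold lower (log2 change -0.37, or -0.14 with equal sums). It lies on the plus strand of chromosome 2 (233415369 to 233448354). NM_004846 carried 88.1% of the total in normoxia and 84.6% in hypoxia, and went from 59.3 to 44.1 FPKM. NM_001276337 was lower as well, at 6.53 and 4.22 FPKM, while NM_001282958 was higher, at 1.505 and 1.92 FPKM.

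The last EIF4E2 transcript, NM_001276336, was listed at 0.00113 FPKM in normoxia and at 1.87 FPKM in hypoxia, 3.59% of the hypoxic total. A value this near 0 can come from how Cufflinks divides reads among overlapping transcripts, and the reads behind it were not analysed here. Its log2 change was 4.29 with 0.1 added and 1.52 with 1 added, so no fold is given. Without it, EIF4E2 would go from 67.4 to 50.3 FPKM.

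EIF4E3, an atypical cap-binding relative, was the least abundant of the 9, with 1.26 FPKM in normoxia and 2.08 FPKM in hypoxia from its single listed transcript, NM_001134651. The log2 change was 0.68, at percentile 92.3 of all genes. It stayed past 1.5-fold under all 3 scalings, but was 0.44 with 1 in place of 0.1 added. EIF4E3 lies on the minus strand of chromosome 3 (71724565 to 71803924). Summed over the 3 cap-binding genes, the level was 102 FPKM in normoxia and 74.9 FPKM in hypoxia.

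**Figure D2:**
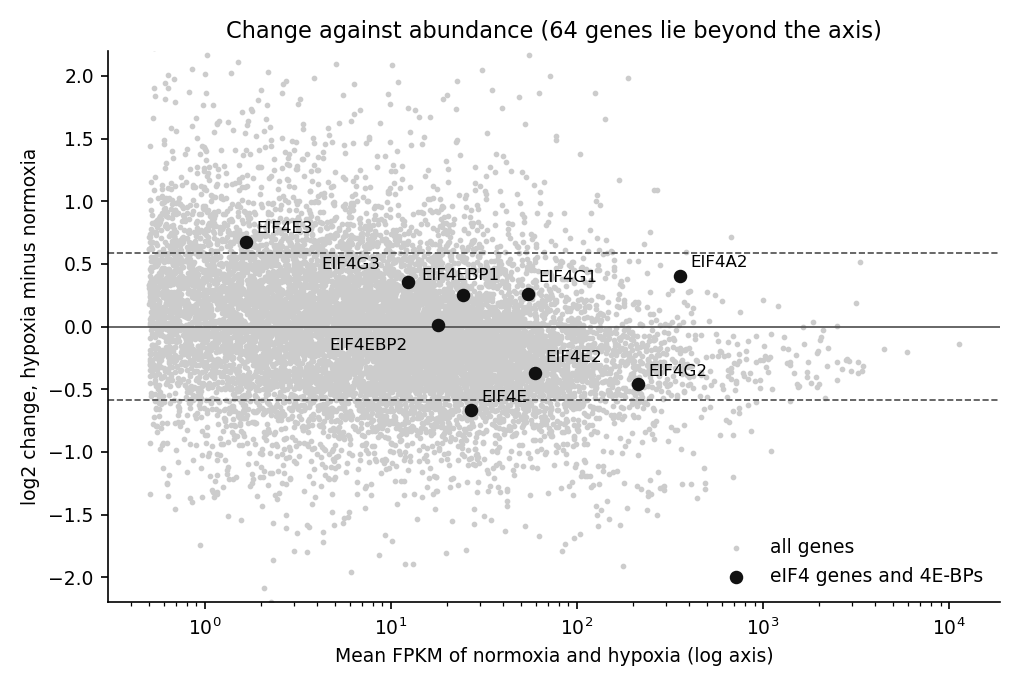
The log2 change of each of 12103 genes (grey) against its mean FPKM on a log axis, with the 9 eIF4 and 4E-BP genes in black and dashed lines at 1.5-fold (64 genes lie beyond the vertical axis). EIF4E lay below the lower dashed line and EIF4E3 above the upper one, and EIF4A2 lay above most genes of its abundance.

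Of the scaffolds, EIF4G1 and EIF4G3 bind eIF4E, eIF4A and eIF3, whereas EIF4G2 (DAP5) lacks the eIF4E-binding region. EIF4G1 was listed at 49.4 FPKM in normoxia and 59.1 FPKM in hypoxia, 1.20-fold higher (log2 change 0.26). EIF4G3 was listed at 10.9 and 14.0 FPKM, 1.28-fold higher (log2 change 0.36). EIF4G2 stood apart from both in direction: its level was 247 FPKM in normoxia and 180 FPKM in hypoxia, 1.37-fold lower (log2 change -0.46, or -0.23 with equal sums). The group of EIF4G2 by mean FPKM had a median of -0.29. The ratio of EIF4G1 to EIF4G2 FPKM, which is per length and which no constant factor on a column can change, was 0.200 in normoxia and 0.328 in hypoxia.

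EIF4G1 spans 184032283 to 184053146 on the plus strand of chromosome 3. Its leading transcript, NM_198242, went from 36.5 to 45.0 FPKM and held 73.7% of the total in normoxia and 76.1% in hypoxia. NM_198244 was listed at 8.66 and 9.52 FPKM, and NM_198241 at 2.14 and 2.69 FPKM. NM_004953 was slightly lower in hypoxia, at 2.04 and 1.89 FPKM, with a sign that turned with equal sums. NM_182917 was the 1 transcript of the 23 whose mean lay below 0.5 FPKM.

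EIF4G2, on the minus strand of chromosome 11 (10818597 to 10830487), was lower in each of its 3 transcripts under all scalings. NM_001418 was listed at 199 and 153 FPKM (log2 change -0.38). NM_001042559 was listed at 43.2 and 23.6 FPKM (log2 change -0.87) and stayed past 1.5-fold under each scaling. The share of NM_001042559 in the EIF4G2 total was 17.5% in normoxia and 13.1% in hypoxia. NM_001172705 made up under 2% of the total in both conditions.

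EIF4G3, on the minus strand of chromosome 1 (21132785 to 21503778), had NM_003760 as its leading transcript, with 7.92 FPKM in normoxia and 10.7 FPKM in hypoxia. Its share went from 72.8% to 76.8%. The other 3 transcripts were each below 1.5 FPKM in both conditions: NM_001198801 and NM_001198802 were higher in hypoxia and NM_001198803 was lower.

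**Figure D3:**
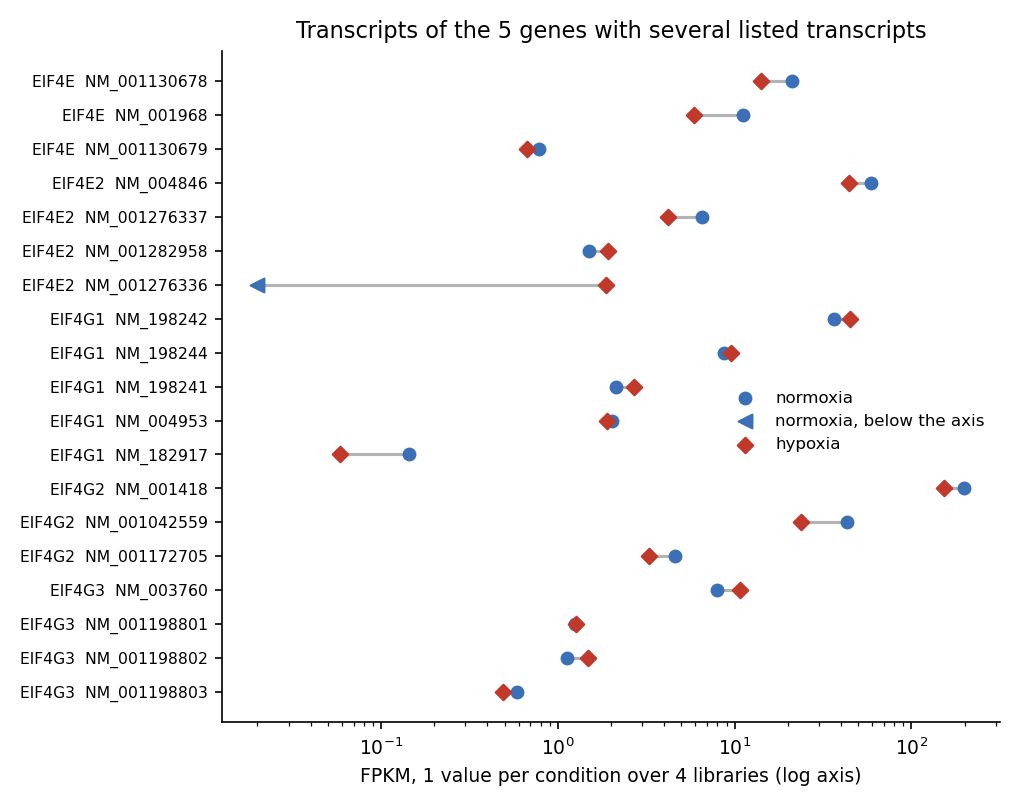
FPKM of the 19 transcripts of the 5 genes with several listed transcripts, on a log axis, in normoxia (blue) and hypoxia (red diamonds). The normoxia value of EIF4E2 NM_001276336, 0.00113 FPKM, lies below the axis and is drawn as a triangle at its edge, and the order of the transcripts within a gene otherwise hardly differed between conditions.

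Of the 22 transcripts at or above 0.5 FPKM in the mean, 10 were lower and 12 higher in hypoxia, where 57.4% of all such transcripts were lower and 42.6% higher. The median log2 change was 0.02. Past 1.5-fold, 3 of 22 were lower (against 14.3% of all transcripts) and 2 of 22 were higher (against 10.5%), together 5 of 22 against 24.9%. The lower ones were EIF4E NM_001968, EIF4E2 NM_001276337 (at -0.62, or -0.40 with equal sums) and EIF4G2 NM_001042559. The higher ones were EIF4E3 NM_001134651 and EIF4E2 NM_001276336. The latter reached the minimum of 0.5 FPKM only through hypoxia, where it was higher, so its place in these counts carries no weight. In each of the 5 genes with several transcripts, the same transcript led in both conditions, and in 4 of them its share was larger in hypoxia, EIF4E2 being the exception.

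EIF4A2, a DEAD-box RNA helicase and a close relative of EIF4A1, was the most abundant of the 9 genes and ranked 181st of the 12103 genes by mean FPKM. Its 1 listed transcript, NM_001967, went from 306 FPKM in normoxia to 406 FPKM in hypoxia, 1.33-fold higher. The log2 change was 0.41, at percentile 83.5 of all genes, while the most abundant of the 10 groups of genes had a median of -0.29. With equal sums it was 0.63 and with quantile normalization 0.72, past 1.5-fold in both. Reads that fit both EIF4A paralogs could have been divided between them in the counting, and the level of EIF4A1 was not analysed here.

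EIF4A2 lies on the plus strand of chromosome 3 (186500994 to 186507686) and hosts small nucleolar RNAs that have entries of their own. SNORA63 (NR_002586), on the same strand within the gene, was listed at 11865 FPKM in normoxia and 10788 FPKM in hypoxia. SNORA81 (NR_002989) was listed at 246 and 253 FPKM, and SNORA4 (NR_002588) at 93.9 and 51.9 FPKM. SNORA63 and SNORA4 were lower in hypoxia and SNORA81 slightly higher, while the host transcript was higher. MIR1248 (NR_031650), listed at the same locus of the table, was at 17.6 and 2.40 FPKM. The table gives EIF4A2 a locus that also takes in its neighbour RFC4, a subunit of the clamp loader of DNA replication, with NM_002916 at 97.7 and 89.4 FPKM and NM_181573 at 31.2 and 27.4 FPKM. SNORD97 (NR_004403), within EIF4G2 and on its strand, was listed at 2949 FPKM in normoxia and 3355 FPKM in hypoxia while EIF4G2 was lower. Dividing by a very short length makes the FPKM of such RNAs unstable, and poly(A) selection does not target them.

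Of the inhibitors, EIF4EBP1 encodes the 4E-BP best known as an mTORC1 substrate. Its 1 transcript, NM_004095, was listed at 22.2 FPKM in normoxia and 26.4 FPKM in hypoxia, 1.19-fold higher (log2 change 0.25, between 0.24 and 0.48 over the scalings, pseudocounts and filters tried). The gene lies on the plus strand of chromosome 8 (37888052 to 37917883). EIF4EBP2, on the plus strand of chromosome 10 (72163901 to 72188374), hardly differed, with NM_004096 at 17.9 FPKM in normoxia and 18.0 FPKM in hypoxia. The sum of EIF4EBP1 and EIF4EBP2 was 40.0 FPKM in normoxia and 44.4 FPKM in hypoxia. EIF4EBP3, another 4E-BP, is not among these genes and was not measured on its own. The readthrough gene ANKHD1-EIF4EBP3 had a mean of 3.26 FPKM and a log2 change of 0.65.

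Ratios of FPKM within a condition are per length and do not depend on a constant factor applied to a column. The ratio of EIF4EBP1 to EIF4E was 0.673 in normoxia and 1.27 in hypoxia. With EIF4EBP1 and EIF4EBP2 added together it was 1.22 in normoxia and 2.14 in hypoxia, 1.76-fold higher. EIF4G1 to EIF4E went from 1.501 to 2.85, and EIF4A2 to EIF4E from 9.30 to 19.6. EIF4E2 to EIF4E differed less, with 2.04 in normoxia and 2.51 in hypoxia. These ratios share EIF4E as the denominator, so they are not separate observations of its lower level. EIF4E had the most negative change of the 9 genes, so every ratio of another of them to it had to be higher in hypoxia. They were chosen after the values were seen.

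**Figure D4:**
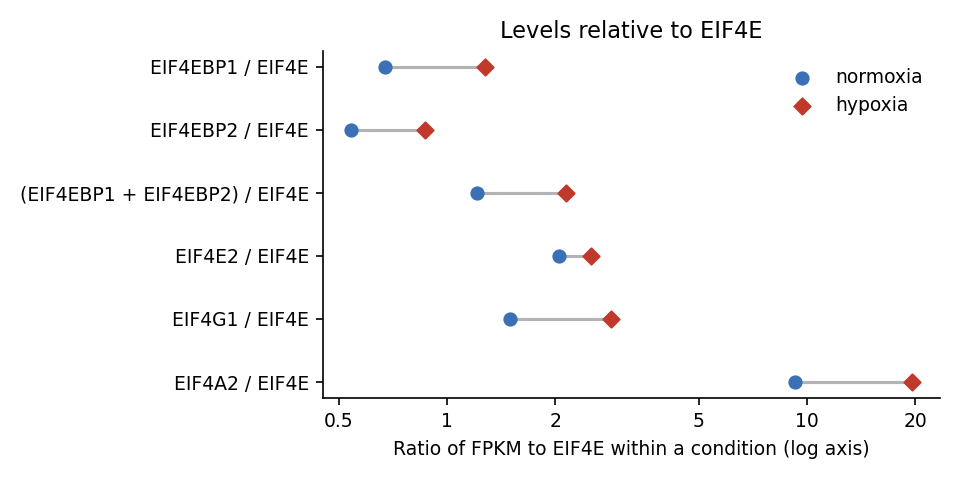
FPKM of EIF4EBP1, EIF4EBP2, their sum, EIF4E2, EIF4G1 and EIF4A2 divided by the FPKM of EIF4E in the same condition, on a log axis, in normoxia (blue circles) and hypoxia (red diamonds). All 6 ratios were higher in hypoxia, as had to follow from EIF4E having the most negative change, and EIF4EBP1 to EIF4E passed from below 1 to above 1.

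EIF4E and EIF4G1, which differed in direction, shared a promoter feature: each had a RefSeq promoter with the letters CACGTG at 2 places. CACGTG is the canonical E-box, to which MYC with MAX and other basic helix-loop-helix factors can bind, and it reads the same on both strands. Promoters run from 250 bases before to 50 bases after a start site (RefSeq, GRCh38.p14) and were placed on GRCh37, the build of the table, by exact match. Distances are from the RefSeq start of that promoter, which need not be the start of a transcript listed here. The listed EIF4E locus ends at 99851786, so both EIF4E windows lie inside it, and no promoter further upstream was searched. The EIF4G1 window 67 bases before the start lies inside the gene span given above. The other EIF4G1 promoters held no CACGTG. The 4 windows are shown since they are all of the E-boxes in the 16 promoters of these genes (1 or more for each gene but EIF4EBP1, EIF4A1 included), with CACGTG in capitals and 10 bases to either side, 5′ to 3′ on the gene's strand.
EIF4E, 225 bases before the start (chr4:99850494-99850519, minus strand): acccatcggcCACGTGaccagtcctt
EIF4E, 72 bases before the start (chr4:99850341-99850366, minus strand): acatatccgtCACGTGgccagaagct
EIF4G1, 144 bases before the start (chr3:184032240-184032265, plus strand): ctgtggctgtCACGTGacggggcggg
EIF4G1, 67 bases before the start (chr3:184032317-184032342, plus strand): ctgcgccggtCACGTGggggcgccgg

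At least 1 CACGTG was found in 2 of the 16 promoters of these genes (12.5%), against 7.26% of all 35116 promoters of this length. Among promoters of the 12103 genes the share was 9.27%. At least 2 were found in 0.664% of all promoters and in 0.988% of those of the 12103 genes. The limit of 2 was not planned and equals the number in the EIF4E and EIF4G1 promoters, so these small shares carry no weight. The letters ACGTG or GCGTG, the core to which hypoxia-inducible factors can bind, were found on either strand in 10 of the 16 promoters, 62.5%. Among all promoters 48.4% held them, and among promoters of the 12103 genes, 60.6%, so this core is common. Every CACGTG holds ACGTG on each strand, so these counts overlap. The promoters of EIF4A1 and EIF4A2, both of EIF4G3, 1 of EIF4E3 and 1 of EIF4G2 held none of these letters, and no promoter of EIF4EBP1 was analysed here. A match describes letters in a window and not binding.

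Beside the 9 genes, a list of 23 partners of the cap complex had 20 measured members. Past 1.5-fold, 3 were higher and 0 lower in hypoxia (with no test), against 9.94% and 11.2% of all genes. PDCD4, which inhibits eIF4A, went from 19.5 to 34.5 FPKM (log2 change 0.82). MKNK2, a kinase that phosphorylates eIF4E, went from 16.5 to 33.8 FPKM (1.03). PAIP2B, an inhibitor of poly(A)-binding protein, went from 1.69 to 3.59 FPKM (1.04). These 3 stayed past 1.5-fold under every scaling. EIF4B, the most abundant of the list and a cofactor of eIF4A, was listed at 386 and 334 FPKM, and its direction turned with equal sums and quantile normalization. In all, 14 of the 20 were lower as deposited, 8 of 20 with equal sums and 10 of 20 with quantile normalization, so that the direction of the list depended on the scaling.

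The list of mTORC1 and its regulators had 27 of 29 genes at or above 0.5 FPKM in the mean, 4 of them at least 1.5-fold higher (against 9.94% of all genes) and 1 lower (against 11.2%). The 5 became 8 with equal sums and 3 with a minimum mean of 1 FPKM. DDIT4, which encodes the mTORC1 inhibitor REDD1, was the most abundant by mean FPKM, though not in normoxia, and went from 53.7 FPKM in normoxia to 195 FPKM in hypoxia, a log2 change of 1.86 at percentile 99.3 of all genes. RRAGA, a Rag GTPase that brings mTORC1 to the lysosome, went from 21.2 to 37.9 FPKM (0.84). RRAGD, another Rag GTPase, was low at 0.210 and 1.06 FPKM (1.90). DEPTOR, an inhibitor of mTOR, had 0.357 and 0.649 FPKM (0.71, or 0.28 with 1 added). RRAGD and DEPTOR reached the minimum of 0.5 FPKM only through hypoxia, where they were higher, so their place in the count carries no weight. RPS6KB2, a kinase of ribosomal protein S6, was the lower one, at 6.74 and 3.61 FPKM (-0.88). DDIT4, RRAGA and RPS6KB2 stayed past 1.5-fold under every scaling. MTOR itself, named here after its values were seen, was listed at 12.1 and 13.1 FPKM.

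The mixed directions of the eIF4 and 4E-BP genes differed from those of the eIF3, eIF2 and eIF2B subunits. No test of that difference can be made. Directions were mixed as well in the partner list (14 lower and 6 higher as deposited) and the mTORC1 list (13 lower and 14 higher). Abundant genes were lower as a class: the most abundant of the 10 groups of genes had a median of -0.29 and the next -0.20. The part of abundance in the lists' levels was not tested. Of 13 measured eIF3 subunits, 12 were lower in hypoxia, where 56.4% of all genes were. EIF3CL (2.60 and 1.96 FPKM) is counted among them, and EIF3C was not analysed here. By at least 1.5-fold, 5 were lower (38.5% against 11.2% of all genes), and the median log2 change was -0.55. The 5 became 2 with equal sums, 2 with quantile normalization and 3 with centring. EIF3G went from 36.2 to 15.3 FPKM (-1.24), EIF3I from 244 to 130 FPKM (-0.91), EIF3J from 52.2 to 31.9 FPKM (-0.71), EIF3F from 121 to 77.3 FPKM (-0.65) and EIF3D from 211 to 135 FPKM (-0.64). EIF3E, the most abundant, was listed at 823 and 608 FPKM (-0.44). Of 8 eIF2 and eIF2B subunits, all were lower as deposited (against 56.4% of all genes), 4 by at least 1.5-fold (against 11.2%), with a median of -0.52. The 4 became 2 with 1 in place of 0.1 added. With equal sums and with quantile normalization 7 of the 8 were lower, and 1 was past 1.5-fold under each of the 3 scalings. With equal sums the medians of both lists were still below 0 (-0.32 and -0.30) and that of the 9 genes was 0.48.

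**Figure D5:**
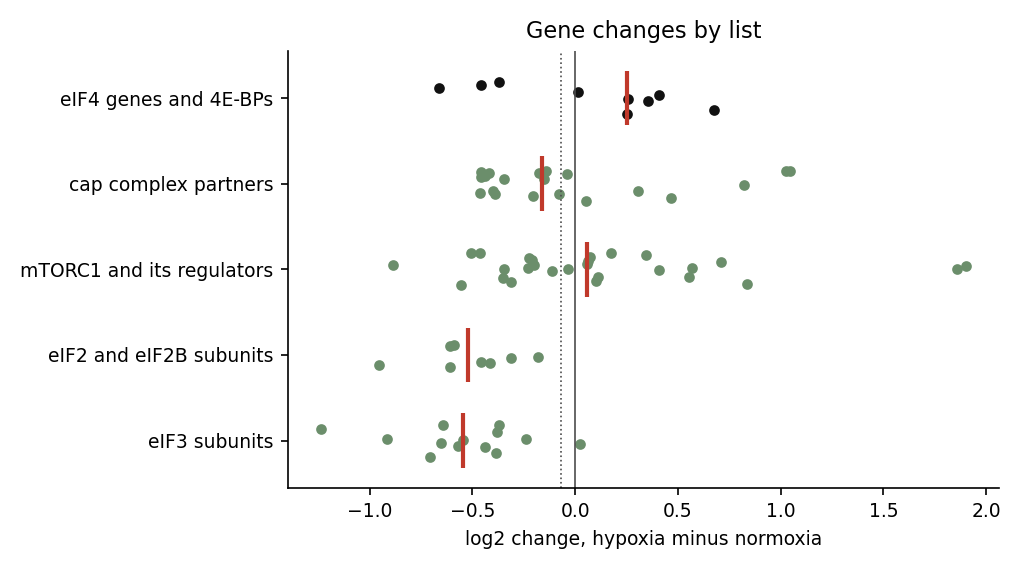
The log2 change of each gene at or above 0.5 FPKM in 5 lists (points, spread vertically to separate them), with the list's median as a red line, 0 as a solid line and the median of all genes as a dotted line. The eIF4 and 4E-BP genes lie on both sides of 0, whereas 12 of 13 eIF3 subunits and all 8 eIF2 and eIF2B subunits lie below it as deposited.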

How the data were processed

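The members and lists were chosen with earlier results of these data known. The authors aligned stranded poly(A)+ reads with STAR 2.3.0.1 to RefSeq hg19 and ran the Cufflinks suite 2.1.1 with standard parameters on 4 libraries per condition. The deposited FPKM values, 1 per transcript and condition, are the authors' values over these replicates, scaled by transcript length and mapped reads. The deposited table also holds the authors' log2 fold changes, a test statistic (a score), p-values and q-values, none of which was used. The planned limma fit needs values of single libraries and was not run. The depth of single libraries is unknown here, so no interval or detection limit is given, and the series text calls the replicates biological without saying more.

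Symbols came from RefSeq (GRCh38.p14, used for names and promoter sequences), which matched 24289 of 24812 entries (97.9%), and spans from GENCODE on GRCh37. FPKM was summed per gene, with 0.1 added before log2, a minimum mean of 0.5 FPKM and 1.5-fold as the limit of size. Percentiles rank all 12103 genes above the minimum. Genes were named by rule: all members, list genes past 1.5-fold with the most abundant gene of each list, and entries at a member's locus. EIF4EBP3 and its readthrough gene are named as well. For eIF2 and eIF2B, only counts and medians are given. Counts and sums were checked only as arithmetic, on normoxia values changed by known factors without added noise. Python 3.11.15, numpy 2.4.6, pandas 2.3.3 and matplotlib 3.10.9 were used. Protein sequences were not analysed here.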

Additional observations from a re-analysis of the deposited data

How the results depend on the processing

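The limits of these data are the single value per condition and the unknown depth, so a move counts here as a shift of at least 0.1 (log2) or of over 1.5 times in a count. No paired analysis was possible because the columns carry no replicate numbers, and for the same reason no replicate could be left out. Among 81 values of single genes under 9 alternatives, 0 changed sign, 16 moved and 65 did not. Without an FPKM limit, with a minimum mean of 1 FPKM or with coding transcripts only, no value of these genes could move. Nor could a gene with 1 transcript when only the most abundant transcript was kept, so part of the 65 was fixed in advance. Equal sums shifted the median of all genes from -0.07 to 0.15 and the median of the 9 genes to 0.48, that of their transcripts to 0.24, and those of the partner, mTORC1, eIF3 and eIF2 lists to 0.063 (reversed), 0.28, -0.32 and -0.30. Past 1.5-fold were then 8 mTORC1, 2 eIF3 and 1 eIF2 genes. Quantile normalization gave 0.39 for the 9 genes, 0.0095 for the partners (reversed), -0.32 for eIF3 and -0.36 for eIF2, with 2 eIF3 and 1 eIF2 genes past 1.5-fold. Centring left 3 eIF3 and 1 eIF2 genes past it. Under both equal sums and quantile normalization 2 of the 9 genes were past 1.5-fold, but EIF4A2 had taken the place of EIF4E. With 1 added in place of 0.1, EIF4E alone was past it (1 gene), as were 2 eIF2 genes. With only the most abundant transcript of each gene, EIF4E3 alone was (1 gene). A minimum mean of 1 FPKM left 3 mTORC1 genes. At the smallest fold limit tried the counts were 6 of the 9 genes, 12 partners, 14 mTORC1 and 11 eIF3 genes, and at 2-fold 0, 2 for mTORC1, 1 for eIF3 and 0 for eIF2. Of all genes, 48.4% were past the smallest limit and 5.8% past 2-fold. Past 1.5-fold were 23.25% of all genes with equal sums, 20.01% with quantile normalization and 21.14% with centring. The share was 14.45% with 1 added, 21.97% with the most abundant transcript only and 20.64% with a minimum mean of 1 FPKM. Shares of transcripts do not depend on a constant factor applied to a column.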
